A study of Mus musculus with 8 samples.

Results

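The proteasome is the large protease that degrades ubiquitin-tagged proteins in every nucleated cell. Its core particle is a barrel of alpha and beta rings, and the beta subunits Psmb5, Psmb6 and Psmb7 carry the proteolytic sites. The regulatory particle sits on the barrel: its base holds the Psmc ATPases that unfold substrates, its lid holds the deubiquitinase Psmd14, and Psmd4 binds ubiquitin chains. In immune cells, interferon replaces the catalytic beta subunits by Psmb8, Psmb9 and Psmb10 to form the immunoproteasome, which changes the peptides available for antigen presentation.

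The genes described here are the constitutive proteasome subunits, chosen by name: symbols made of Psma, Psmb, Psmc or Psmd and digits, without Psmb8, Psmb9 and Psmb10. Of the 30406 genes listed for all libraries, 36 met this rule: 8 alpha ring, 8 beta ring, 6 ATPase, 3 other base and 8 lid genes, and 3 chaperones that help assemble the base (Psmd5, Psmd9 and Psmd10). They were measured by single-cell RNA sequencing of 3′ transcript ends in CD45iv-CD45+ leukocytes, that is, cells positive for CD45 that an antibody injected into the blood stream had not reached. The cells came from adult male C57BL/6 mice, from brain parenchyma, pia and dura. There was 1 control library for each of the 3 tissues, and the labels call these mice control. The study describes them as naive in its methods and as sham-operated in its legends, so whether 24 h against control includes the effect of surgery cannot be told. For pia control, the title reads brain but the source and tissue labels read pia, which was followed. After transient occlusion of the middle cerebral artery (MCAO) there were 2 brain libraries, 1 pia library and 1 dura library at 24 h, and 1 brain library at 72 h. According to the study, repeated experiments were pooled for each compartment, and how many mice stand behind each library is not given in the sources used here.

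The 8 libraries held 36854 barcodes, of which 32457 carried 1 of 21 cluster names in the deposited annotation. Annotated cells had a median of 1071.5 to 2501 unique molecular identifiers (UMIs, counted molecules). Brain 24 h replicate 2 and brain 72 h stood apart from the other 6: they came with a shorter gene list, Ptprc (the gene of CD45) was detected in 60.8% and 64.5% of their cells against 23.3% to 34.0% elsewhere, and ribosomal protein genes took 12.5% and 16.5% of their UMIs against 3.18% to 9.88%. Any 2 libraries shared at most 43 barcodes. Brain 24 h replicate 2 shared 0 barcodes with brain 24 h replicate 1 and 13 with brain 72 h. Dura 24 h shared 18 with dura control and 1 with brain 72 h. This pattern does not follow the recorded 10x Genomics kits, v3 for brain 72 h and dura 24 h and v2 otherwise. Several tests are therefore given with and without brain 24 h replicate 2 and brain 72 h. Cluster ranks, shares and ratios include both libraries. Cluster names fitted the markers for most clusters: Spp1, Lpl, Fabp5 and Gpnmb were highest in the stroke-associated myeloid cells (SAMC), Tmem119 and P2ry12 in Micro_1, and S100a8 in Granulo_2, while Granulo_1 was highest in Lyz2 and Fn1.

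Proteasome gene promoters are known targets of the factor Nfe2l1, which binds antioxidant response elements. Upstream sequences of 250 bases were found in RefSeq (GRCm38.p6) for 29 of the 36 genes and searched on both strands. The antioxidant response element core, TGACNNNGC or TGAGNNNGC, was present upstream of 11 of the 29 genes (37.9%) and of 25.7% of all 27025 genes. The core CGGAAG of sites for ETS factors was present in 16 of 29 (55.2%) against 15.3% of all genes, and CCAAT in 12 of 29 (41.4%) against 37.5%. The sequences of 4 genes are shown because they are among the members with larger differences between clusters described later. They run 5′ to 3′ on the strand of the gene, up to 1 base before its start. Psmb6 (chr11:70525107-70525356, plus strand) and Psmb5 (chr14:54618023-54618245, minus strand) are catalytic subunits, and capitals mark the antioxidant response element core, which begins 9 and 47 bases before the RefSeq start. Psma7 (chr2:180042465-180042714, minus strand) is an alpha ring subunit with a CCAAT box in capitals. In Psmd14 (chr2:61711444-61711693, plus strand) capitals mark a CCAAT box and an ETS core, both read from the other strand. For Psmb5, the 27 bases that the gene annotation places inside the gene were left off.
Psmb6: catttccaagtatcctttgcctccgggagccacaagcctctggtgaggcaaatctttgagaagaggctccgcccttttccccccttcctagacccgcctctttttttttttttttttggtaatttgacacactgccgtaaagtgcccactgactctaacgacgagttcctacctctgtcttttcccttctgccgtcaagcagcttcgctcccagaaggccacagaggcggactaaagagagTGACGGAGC
Psmb5: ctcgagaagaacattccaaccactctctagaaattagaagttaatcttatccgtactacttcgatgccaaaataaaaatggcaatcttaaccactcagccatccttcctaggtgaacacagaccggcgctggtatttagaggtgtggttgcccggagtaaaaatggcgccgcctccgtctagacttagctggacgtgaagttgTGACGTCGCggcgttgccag
Psma7: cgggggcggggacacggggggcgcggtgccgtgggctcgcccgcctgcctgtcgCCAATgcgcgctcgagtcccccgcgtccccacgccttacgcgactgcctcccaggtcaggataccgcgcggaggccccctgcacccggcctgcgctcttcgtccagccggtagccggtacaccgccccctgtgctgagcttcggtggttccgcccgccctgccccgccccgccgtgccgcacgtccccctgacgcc
Psmd14: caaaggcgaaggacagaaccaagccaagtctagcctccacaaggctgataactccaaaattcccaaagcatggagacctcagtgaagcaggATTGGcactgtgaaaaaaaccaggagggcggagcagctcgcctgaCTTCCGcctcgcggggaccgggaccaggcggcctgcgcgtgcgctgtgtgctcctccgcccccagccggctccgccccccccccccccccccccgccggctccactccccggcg
No base belongs to matches of more than 1 motif. A match says only that these letters occur in the window.

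Levels are given as CPM, the UMIs of a gene scaled to the same total in every library and cluster, for clusters with at least 30 cells in a library. Since each 3′ UMI stands for 1 captured transcript end, levels were not divided by gene length. Averaged over clusters, Psma7 had the highest level (335 CPM), followed by the beta ring genes Psmb3 (318 CPM), Psmb1 (312 CPM), Psmb2 (265 CPM) and Psmb6 (260 CPM). Psma3 (254 CPM), Psma2 (220 CPM), Psma1 (161 CPM), the lid gene Psmd8 (158 CPM) and the ubiquitin receptor Psmd4 (156 CPM) completed the first 10. The other 2 constitutive catalytic genes were lower, Psmb5 at 106 CPM and Psmb7 at 80.0 CPM, and Psmd14 had 91.4 CPM. Of the first 10, 8 were genes of the core particle, while Psmb5 and Psmb7 lay within the range of the regulatory particle. The assembly chaperones were among the lowest, Psmd10 at 49.9 CPM, Psmd5 at 39.9 CPM and Psmd9 at 37.9 CPM. A pair of tissue-restricted subunits stood far below: Psma8, the testis form of Psma7, had 154 UMIs in all annotated cells (2.50 CPM), and Psmb11, the thymus catalytic subunit, had 3 UMIs in total. Both genes were too low for the tests.

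Summed over the 36 genes, proliferating cells (prolif_cells) were highest at 7577 ± 2381 CPM (SD, n = 3 libraries), followed by SAMC at 6622 ± 1851 CPM (n = 4), Granulo_1 at 6502 ± 1568 CPM (n = 7) and mDC1 at 5883 ± 1288 CPM (n = 6). The border-associated macrophage cluster CAM_2 had 5881 ± 1550 CPM (n = 8) and T cells (Tc) 5798 ± 1572 CPM (n = 8). B cells (Bc, 3922 ± 672 CPM, n = 6), Micro_2 (3406 ± 1145 CPM, n = 6), Granulo_2 (3006 ± 698 CPM, n = 6) and stress_Micro (2292 ± 101 CPM, n = 2) were at the low end. The proteasome genes took 0.758% of all UMIs in the proliferating cells and 0.229% in stress_Micro. Clusters next to each other in this order had close means: in 19 of 20 neighbouring pairs the means differed by less than the larger SD. This SD includes differences between libraries, so it does not show whether clusters differ within libraries. In shared libraries, Granulo_1 was above mDC1 in 5 of 6, CAM_2 above T cells in 4 of 8 and SAMC above Granulo_1 in 2 of 4. Mast cells and Micro_2 shared 0 libraries. The means of different clusters also cover different libraries. In the libraries with the longer gene list alone, proliferating cells had 8684 ± 1996 CPM (SD, n = 2), SAMC 8173 ± 31.6 CPM (n = 2), T cells 6593 ± 644 CPM (n = 6) and Micro_2 4050 ± 728 CPM (n = 4).

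**Figure D1:**
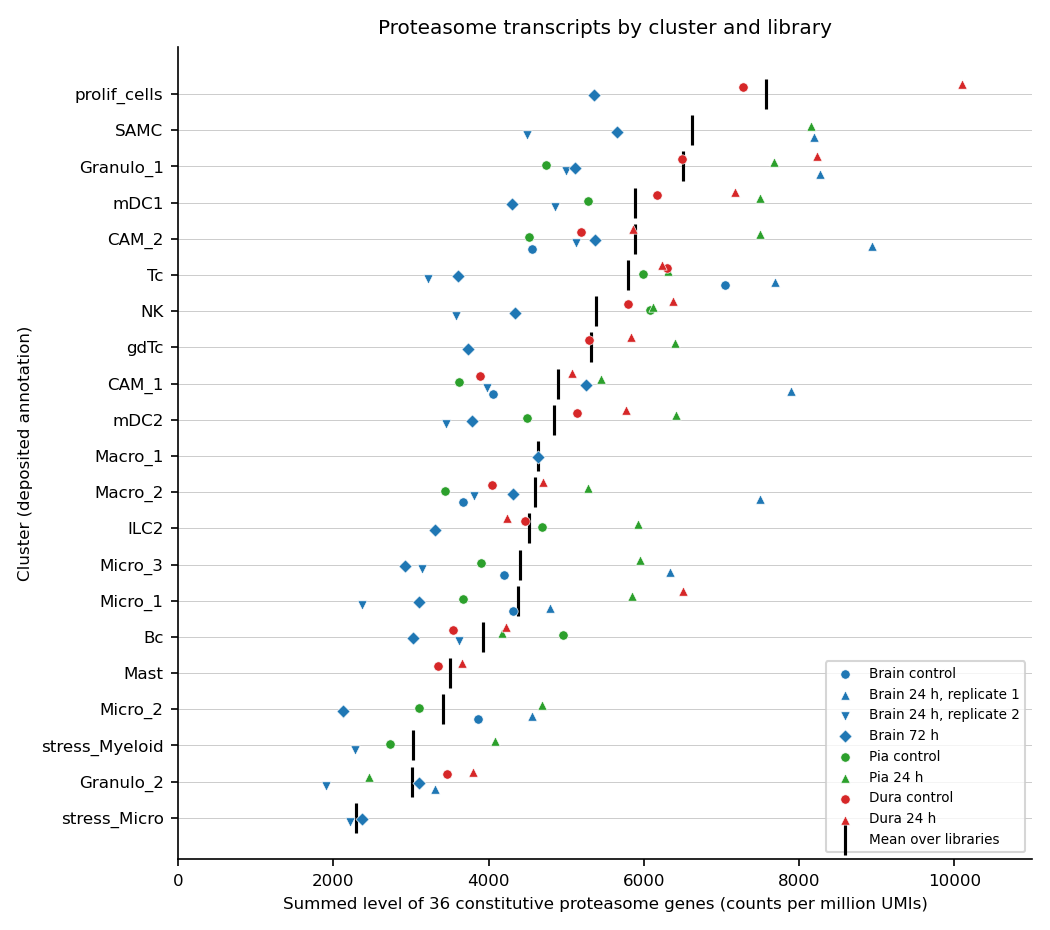
Summed level of the 36 genes (x axis, CPM) in each of the 21 clusters (y axis, ordered by mean). Each point is 1 library with at least 30 cells, coloured by tissue (blue brain, green pia, red dura), and the black bar is the mean over libraries. Within most clusters the brain 24 h replicate 2 and brain 72 h points lie to the left and the other 24 h points to the right.

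Order within a library does not depend on differences between libraries. Depending on the library, 7 to 19 clusters had enough cells to be ranked. SAMC ranked among the 3 highest clusters in 3 of their 4 libraries and first in 2. In the same libraries CAM_2 had rank 1 in brain 24 h replicates 1 and 2, rank 2 in brain 72 h and rank 4 in pia 24 h. Proliferating cells were among the 3 highest in 3 of 3, and Granulo_1 in 5 of 7. Granulo_2 was among the 3 lowest in 5 of 6 libraries and the lowest in 3, and Micro_2 was among the 3 lowest in 5 of 6. T cells had no stable place and ranged from rank 1 of 7 clusters in brain control to rank 12 of 19 in brain 72 h.

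The members did not share their peak: 15 of the 36 were highest in proliferating cells, 11 in SAMC, 3 in T cells and 3 in gamma-delta T cells (gdTc). The count for T cells includes Psmb11, which had only 3 UMIs in total. These cluster means cover different libraries. Highest in SAMC were, among others, Psmb6 (509 CPM), Psmd7 (252 CPM) and Psmd1 (180 CPM). Psmb1, a non-catalytic beta subunit, was highest in T cells at 625 CPM and lowest in stress_Micro at 73.9 CPM. The share of subgroups moved less than the sum. Alpha ring genes made up 24.3% (stress_Micro) to 34.3% (mDC2) of all member UMIs and beta ring genes 23.8% to 35.5%. Values of stress_Micro rest on brain 24 h replicate 2 and brain 72 h alone. Lid genes took 14.3% (mast cells) to 23.2%, and the chaperones 1.77% (mDC2) to 3.88% (Granulo_2). As a description, the log level of each tested gene was correlated with the mean of the others over 112 sums of library and cluster, after centring each library. The correlation was highest for Psmb6 (r = 0.84), had a median of 0.67, and was lowest for the chaperones Psmd5 (r = 0.20), Psmd10 (r = 0.27) and Psmd9 (r = 0.29). These sums share libraries and differ in depth, and low counts lower a correlation.

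Comparisons between clusters used UMIs summed per library and class, the quasi-likelihood test of edgeR, a block for each library, and Benjamini-Hochberg adjustment over all genes tested. A gene was called at an adjusted p under 0.05. In these tests 34 of the 36 genes passed the filter on low counts. Nothing says that libraries come from separate animals in each case. With the block, the p-values measure how the difference within a library varies between libraries. The macrophage sums (CAM_1, CAM_2, Macro_1 and Macro_2) serve as the reference of 3 comparisons, which are therefore not independent.

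SAMC are Spp1-high myeloid cells that reached 30 cells in the 3 brain stroke libraries and in pia 24 h, and their proteasome genes were compared with those of the macrophage and microglia clusters of the same libraries. Against microglia (Micro_1, Micro_2, Micro_3 and stress_Micro), constitutive proteasome genes were higher as a group. The summed level was 8195 CPM in SAMC and 5016 CPM in microglia of brain 24 h replicate 1. It was 4495 and 2402 CPM in replicate 2, 5647 and 2631 CPM in brain 72 h, and 8150 and 5671 CPM in pia 24 h. SAMC were thus higher in 4 of 4 libraries, 1.75-fold on average (log2 0.81 ± 0.25, SD, n = 4). Of the 34 genes tested, 26 were called higher and 0 lower. Over all 8331 genes, 10.9% were called higher and 12% lower, and the median log2 fold change was 0.90 over the members against -0.03 over all genes.

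The deubiquitinase Psmd14 and the catalytic subunit Psmb6 differed most. Psmd14 had 199, 115, 95.5 and 205 CPM in SAMC of brain 24 h replicate 1, replicate 2, brain 72 h and pia 24 h, and 83.5, 33.1, 32.3 and 125 CPM in microglia of the same libraries (log2 fold change 1.46 ± 0.23, SE, adjusted p = 0.00078). Each SAMC sum was above its own library's microglia, though SAMC of brain 72 h lay below microglia of pia. Psmb6 had 849, 246, 348 and 594 CPM in SAMC and 307, 88.8, 119 and 344 CPM in microglia (log2 1.45 ± 0.22, adjusted p = 0.00061). Psma7 followed with log2 1.25, the ATPase Psmc4 with 1.19, Psmb3 and Psma2 with 1.14 each, Psmb5 with 1.13, the ATPase Psmc1 with 1.11, and Psmb4 and Psma6 with 1.07 each. Psmd4 was higher by 0.73 (adjusted p = 0.022). Psmb7, the third catalytic subunit, gave 0.62 with adjusted p = 0.077. Psma3, Psmc2, Psmd3, Psmd6 and the 3 chaperones did not pass either.

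These calls depended on comparing within libraries. With no library block 0 members were called, where 0.168% of all genes were higher, although the median log2 fold change stayed at 0.85. Without brain 24 h replicate 2 there were 15 calls (44.1% of members against 5.68% of all genes). In the 2 libraries with the longer gene list there were 5 (14.7% against 5.34%). SAMC also held more UMIs per cell than microglia, 2030 to 4751 against 1150 to 1698 in the 4 libraries, and the part of this in the difference was not tested. In cells with at least 1000 UMIs, 25 members were called higher (73.5%), against 9.23% of all genes. Simulated data of this design gave back 17% of genes changed 2-fold and 1% of genes changed 1.5-fold. In all simulations the changed genes were drawn from all genes with enough counts, and every sum was drawn from 1 pooled profile. Real differences between libraries, tissues and cell types were thus left out of the simulated means. These shares therefore do not give the recovery of the members. Heat-shock genes (6 genes, of which 1 was at 0 in SAMC of brain 24 h replicate 1) summed to 1583 to 6041 CPM in SAMC and 1886 to 14009 CPM in microglia, and were lower in SAMC in each library.

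Against macrophages, the difference in SAMC was small. The summed level in macrophages was 8063, 4110, 4939 and 5617 CPM in the same order of libraries, so that SAMC were higher in 4 of 4, but by only 1.02-fold to 1.45-fold (mean log2 0.22 ± 0.22, SD). In the test 33 of 34 genes pointed upward with a median log2 fold change of 0.19, against -0.03 over all 8474 genes. However, 0 members were called higher and 0 lower, where 0.767% and 2.16% of all genes were. At an unadjusted p under 0.05 there were 9 members by edgeR and 5 by DESeq2, which called 0 as well. With CAM_2 alone as the reference, the median was 0.08 and 23 of 34 genes pointed upward. CAM_2 had 8933, 5121, 5376 and 7490 CPM in the same libraries, so SAMC were above CAM_2 in 2 of 4 (mean log2 -0.03 ± 0.15, SD). Against all macrophages, the base scaffold gene Psmd1 came closest to a call: it had 195, 148, 178 and 201 CPM in SAMC against 200, 99.2, 106 and 89.7 CPM in macrophages (log2 0.58 ± 0.17, adjusted p = 0.085). Psmb6 gave 0.49 (adjusted p = 0.18) and Psmd14 0.44 (adjusted p = 0.20). In simulated data of this design, 65% of genes changed 2-fold and 10% of genes changed 1.5-fold were recovered. These shares do not give the recovery of the members either, and the absence of calls does not exclude a small difference.

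**Figure D2:**
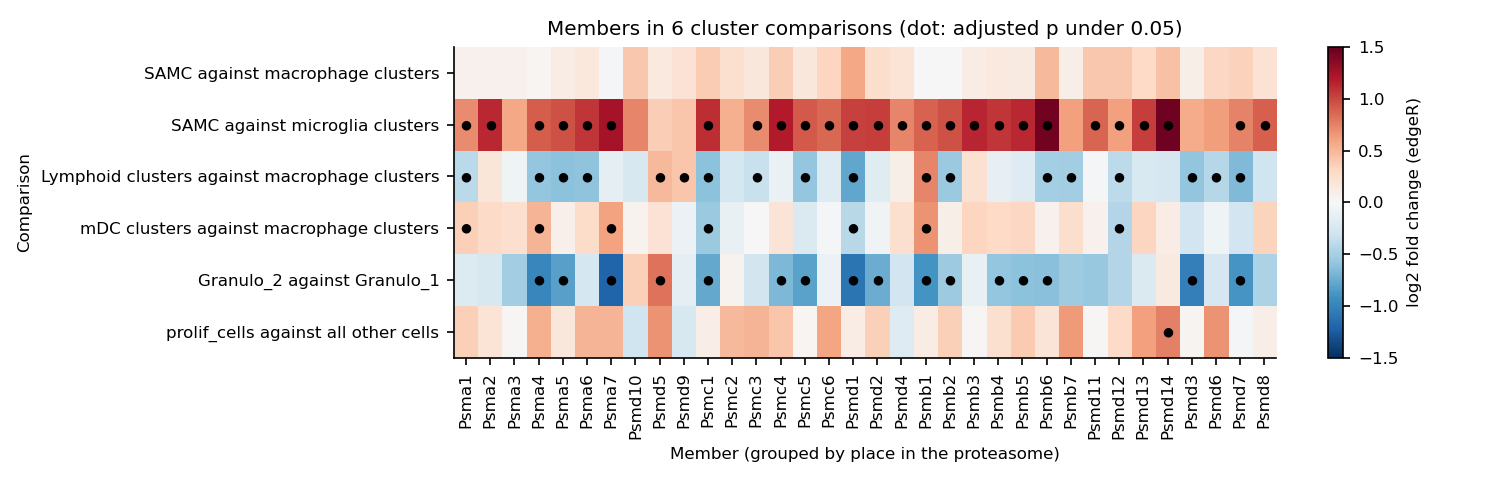
log2 fold change (colour, edgeR fit) of the 34 tested members (x axis, grouped by alpha ring, chaperones, ATPases, other base, beta ring and lid) in 6 cluster comparisons (y axis). A dot marks an adjusted p under 0.05: 26 for SAMC against microglia and 0 for SAMC against macrophages.

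Lymphoid clusters (Bc, Tc, NK, gdTc and ILC2) differed from macrophages gene by gene. Of 34 members, 3 were called higher and 15 lower in the 8 libraries, where 27.5% and 26.8% of 7545 genes were called. Psmb1 was the exception in size: it had 720, 789, 259 and 295 CPM in lymphoid cells of brain control, 24 h replicate 1, replicate 2 and 72 h. It had 609 and 602 CPM in those of pia control and 24 h, and 492 and 525 CPM in those of dura control and 24 h. Macrophages had 201 to 319 CPM, so Psmb1 was higher in 8 of 8 libraries (log2 0.74 ± 0.16, adjusted p = 0.0011). The chaperones Psmd5 (0.49, adjusted p = 0.044) and Psmd9 (0.42, adjusted p = 0.047) were higher in 7 of 8 libraries each.

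The 10 largest decreases were in Psmd1 (log2 -0.77), the lid gene Psmd7 (-0.66), Psma5 (-0.62), Psmc1 (-0.61), Psma6 (-0.60), Psmd3 (-0.59), Psma4 (-0.58), Psmc5 (-0.57), Psmb2 (-0.56) and Psmb7 (-0.52). Psmd1 had 34.3 to 142 CPM in lymphoid cells and 52.9 to 200 CPM in macrophages and was lower in 7 of 8 libraries (adjusted p = 0.00049). Psmb6 was lower by the fit (-0.51, adjusted p = 0.013), while Psmb5 (-0.19, adjusted p = 0.40), Psmd4 (0.09, adjusted p = 0.61) and Psmd14 (-0.25, adjusted p = 0.24) were not called. Most of these decreases are relative to the other genes. Scaled by library size alone, the fit gave 5 members higher and 1 lower, against 40.3% and 18.8% of all genes, since it moved the median of all genes to 0.34 from 0.05. On that plain CPM scale the summed level was higher in lymphoid cells in 5 of 8 libraries (mean log2 0.10 ± 0.40, SD), the opposite sign to the fitted median of -0.26. Ribosomal protein genes took 12.8% to 25.7% of lymphoid and 3.87% to 17.4% of macrophage UMIs, and their part in the result was not tested.

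Dendritic cells (mDC1 and mDC2), which present antigen to T cells, had 4 of 34 members called higher and 3 lower than macrophages of the same 7 libraries. These shares (11.8% and 8.82%) lay below the 15.9% and 17.3% of 7588 genes, so the members did not stand out as a group. Higher were Psmb1 (log2 0.67, adjusted p = 0.0013), Psma7 (0.60, adjusted p = 0.0031) and Psma4 (0.52, adjusted p = 0.0078), each in 7 of 7 libraries, and Psma1 (0.36, adjusted p = 0.038). Psma7 had 417 to 672 CPM in dendritic cells and 248 to 426 CPM in macrophages, with dendritic cells above in each library. Lower were Psmc1 (-0.55, adjusted p = 0.0055) and Psmd12 (-0.44, adjusted p = 0.021), in 7 of 7 libraries, and Psmd1 (-0.42, adjusted p = 0.042). Without brain 72 h, 11 members were higher and 2 lower (16.5% and 18.9% of all genes), and with the longer gene list only 10 and 2 (15.7% and 16.5%). With no library block 1 was higher and 0 lower, against 6.14% and 7.68% of all genes.

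The 2 clusters that the annotation names Granulo were far apart. S100a8 and Hp were highest in Granulo_2, but Lyz2 and Fn1 in Granulo_1, so the clusters need not be the same cell type. The summed level was 3312, 1906, 3101 and 2463 CPM in Granulo_2 of brain 24 h replicate 1, replicate 2, brain 72 h and pia 24 h, and 3458 and 3798 CPM in dura control and 24 h. In Granulo_1 of the same libraries it was 8268, 5002, 5110, 7676, 6496 and 8224 CPM. The groups did not overlap, and Granulo_2 had 0.441 times the level of Granulo_1 on average (log2 -1.18 ± 0.34, SD, n = 6). After TMM scaling, 1 member was called higher and 15 lower, against 21.8% and 24.3% of 3924 genes. By library size alone 30 were lower and 0 higher, against 52.2% and 9.94% of all genes, whose median was -0.72. The largest decreases were in Psma7 (log2 -1.20, adjusted p = 6.6e-05), Psmd1 (-1.10), Psmd3 (-1.02), Psma4 (-0.98), Psmb1 (-0.89), Psmd7 (-0.88), Psma5 (-0.81), Psmc5 (-0.80), Psmc1 (-0.77) and Psmd2 (-0.74). Psma7 had 91.8 to 249 CPM in Granulo_2 and 575 to 786 CPM in Granulo_1, with no overlap. Psmb5 (-0.61, adjusted p = 0.026) and Psmb6 (-0.63, adjusted p = 0.022) were also lower, whereas Psmd14 (0.13, adjusted p = 0.69) and Psmd4 (-0.28, adjusted p = 0.26) were not called. The chaperone Psmd5 was higher on the TMM scale (0.81, adjusted p = 0.038), but its CPM was higher in only 3 of 6 libraries. In cells with at least 1000 UMIs, 7 members were lower and 0 higher, where 20.7% of all genes were lower. With the longer gene list only, 5 of 32 members were lower, where 19.9% of all genes were. Both shares of members were close to or below those of all genes.

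Proliferating cells, with the highest sums, gave few calls. Only Psmd14 was called higher (1 of 34, 0 lower), against 6.28% and 5.84% of 10121 genes. It had 109 CPM in brain 72 h, 199 CPM in dura control and 267 CPM in dura 24 h, against a mean of 86.2 CPM in all other cells (log2 0.75 ± 0.22, adjusted p = 0.040, higher in 3 of 3 libraries). In all, 30 of 34 genes pointed upward, with a median of 0.27 against -0.13 over all genes. By library size alone 13 were called higher (11% of all genes), and without brain 72 h 8 (8.28% of all genes), while DESeq2 called 0. With 3 libraries the design recovered 6% of genes changed 2-fold in simulated data.

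Stroke was examined by the levels in control and 24 h libraries of each tissue. In macrophages the summed level was 3598 CPM (95% Poisson interval 3540 to 3656) in pia control and 5617 CPM (5544 to 5691) at 24 h, that is 1.56-fold higher. In dura it was 4091 and 4946 CPM, or 1.21-fold higher. Dura 24 h is recorded as kit v3 and dura control as kit v2, but these 2 libraries shared 18 barcodes, against 1 between dura 24 h and brain 72 h. Whether the kit differed between the dura libraries is therefore uncertain, and its part was not tested. In brain, control had 4209 CPM, 24 h replicate 1 had 8063 CPM and replicate 2 had 4110 CPM. The 2 brain replicates therefore gave 1.92-fold and 0.976-fold of control, and they differed more than control and stroke did in pia or dura. In microglia the same held: 3637 and 5671 CPM in pia, 4119 and 5482 CPM in dura (51 and 76 cells), and 4136, 5016 and 2402 CPM in brain control, replicate 1 and replicate 2. The mix of the class changed: stress_Micro made up 24.0% of microglia in replicate 2, against 0.375% in brain control and 0.367% in replicate 1. Without stress_Micro the levels were 4136, 5015 and 2444 CPM. In dura microglia, fibroblast genes (3 genes) summed to 30.4 CPM in control and 876 CPM at 24 h, and neuron genes (2 genes) to 0 and 89.9 CPM. Heat-shock genes in pia microglia summed to 9011 and 14009 CPM. The part of these in the levels was not tested. The Poisson intervals cover counting error only, and each condition other than brain 24 h had 1 library. In these sums, less RNA per cell and other genes taking more of it cannot be told apart.

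**Figure D3:**
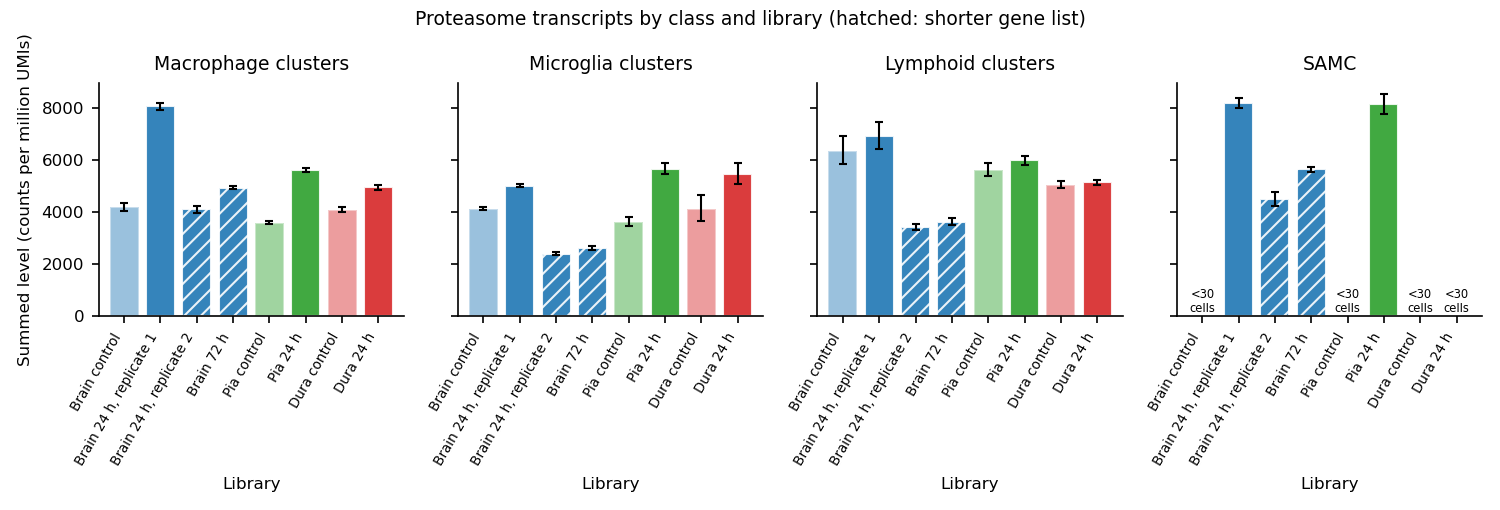
Summed level of the 36 genes (y axis, CPM, bars from 0) by library (x axis) in macrophage, microglia and lymphoid clusters and SAMC. Error bars are exact 95% Poisson intervals, pale bars are controls, and hatched bars are the 2 libraries with the shorter gene list, which are the lowest of the lymphoid and microglia panels.

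Among members, 34 of 35 with UMIs were higher in macrophages of brain 24 h replicate 1 than in control, 33 of 35 in pia and 30 of 35 in dura. In replicate 2 it was 12 of 35. Of all genes with at least 30 CPM on average, 57.9%, 62.8%, 56.5% and 54.4% were higher, in the same order. Their median log2 change was 0.12, 0.12, 0.05 and 0.12, and that of the members at this level 0.87, 0.60, 0.25 and -0.12. Psmb6 differed most in replicate 1, with 642 CPM against 224 CPM in brain control. It had 377 against 201 CPM in pia and 322 against 216 CPM in dura, but 185 CPM in brain replicate 2. Psmb4, a non-catalytic beta subunit, was higher than control in all 4 stroke libraries: 75.6 CPM in brain control against 135 and 158 CPM, 77.3 against 125 CPM in pia, and 72.9 against 109 CPM in dura. It was not alone: Psma7, Psmb5 and Psmd4, among others, were also higher in all 4. Psma7 had 203 CPM in brain control against 355 and 360 CPM, 248 against 377 CPM in pia, and 296 against 334 CPM in dura. The share of all genes higher in all 4 was not computed.

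In the test over all 7 libraries with tissue as a covariate, 0 members were called higher and 0 lower in macrophages, as were 0% and 0% of 8875 genes. The median over members was 0.44 and over all genes 0.04, and 32 of 34 members pointed upward. At an unadjusted p under 0.05 there were 2 members, Psmb4 (log2 0.67 ± 0.26, unadjusted p = 0.0362) and Psmd4 (0.67 ± 0.28, unadjusted p = 0.0498). DESeq2 called 0 and had 0 at that threshold. Psmb5 (0.49), Psmb6 (0.72), Psmb7 (0.43) and Psmd14 (0.58) shared the adjusted p of 0.93. Without brain 24 h replicate 2 the median was 0.55 and 24 of 34 members had an unadjusted p under 0.05, as did 24.4% of all genes. There 0 members were called, against 40 genes higher and 45 lower of 8678. Without replicate 1 the median was 0.22. In simulated data this design recovered 0% of genes changed 2-fold, so the absence of calls says little. Hemoglobin genes (4 genes) summed to 0 CPM in macrophages of brain control and brain 24 h replicate 1, and to 751 CPM in replicate 2. In dura macrophages they summed to 11.0 CPM in control and 315 CPM at 24 h, and in pia to 0 and 1.74 CPM. The part of such RNA from other cells was not tested.

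In lymphoid cells the summed level was 5628 CPM in pia control and 5986 CPM at 24 h, 5055 and 5139 CPM in dura, and 6367, 6943 and 3428 CPM in brain control, replicate 1 and replicate 2. In the test, 0 members were called higher and 0 lower (0% and 0% of 6591 genes), 0 had an unadjusted p under 0.05 by edgeR or by DESeq2, and the median was -0.00, with 17 of 34 upward. Within each library, the ratio of lymphoid to macrophage level compares cells processed together. On the log2 scale this ratio was 0.60 in brain control and -0.22 and -0.26 in the 2 brain 24 h replicates. It was 0.65 in pia control and 0.09 at 24 h, and 0.31 in dura control and 0.06 at 24 h. The 3 controls lay above the 4 stroke libraries with no overlap. The share of all genes whose ratio separates these libraries in the same way was not computed. The ratios of the brain replicates were close, but they come from different mixes of lymphoid cells. The brain lymphoid sums held only 68 cells in control and 72 in replicate 1, against 437 in replicate 2, and 7, 7 and 161 of these were B cells. T cells alone had 7045, 7690 and 3223 CPM, against 4209, 8063 and 4110 CPM in macrophages. The part of this mix in the ratios was not tested. The difference in the response of the 2 classes was tested in a single fit added after these values were seen. Here 31 of 34 members had a negative term, with a median of -0.39 against 0.03 over all genes. However, 0 members were called higher and 0 lower, as were 0% and 0% of 9286 genes, with 2 members at an unadjusted p under 0.05 by edgeR (Psmc1 and Psmd11, named after their values were seen) and 4 by DESeq2. The design recovered 0% of genes changed 2-fold in simulated data.

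Between tissues, macrophages of pia and dura had 0 members higher and 0 lower than those of brain, against 2.02% and 1.62% of 9486 genes, and 0 at an unadjusted p under 0.05 (1 by DESeq2, which called 0). The median was 0.06 over members and -0.14 over all genes. Without brain 24 h replicate 2, 2 of 35 members were called higher and 3 lower (5.71% and 8.57%), below the 19.3% and 16.6% of all genes. This design also recovered 0% of genes changed 2-fold. At 72 h, known only in brain, macrophages had 4939 CPM, 0.613 times replicate 1 and 1.20 times replicate 2 of the 24 h libraries. In microglia (2631 CPM) and lymphoid cells (3632 CPM) it was likewise below the first and above the second replicate, so that no direction over time could be given. Brain 72 h is also recorded as kit v3 and the brain 24 h libraries as kit v2. However, brain 72 h shared 13 barcodes with replicate 2 and 2 with replicate 1, so these kits are uncertain. By the records, time and kit cannot be told apart.

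The 2 libraries with the shorter gene list differed from brain 24 h replicate 1 in nearly all members, but not in the same measure. In macrophages, 32 of 35 members were lower in replicate 2 than in replicate 1 (median log2 -0.86), and 31 of 36 were lower at 72 h (median -0.76). Of genes with at least 30 CPM on average, 3 of 34 and 4 of 34 members were higher. Of all such genes, 48.7% and 45.3% were higher (medians -0.03 and -0.14). The ATPase Psmc4 had 299 CPM in replicate 1 and 71.3 CPM in replicate 2, and 86.3 CPM at 72 h. The lid gene Psmd12 had 303, 73.5 and 71.5 CPM and Psmb6 642, 185 and 239 CPM. By contrast Psma7 had 355, 360 and 426 CPM, Psmb4 135, 158 and 280 CPM, and Psmb5 139, 143 and 218 CPM. The 2 brain libraries of the same label thus differed several-fold in some subunits of 1 complex and not in others. In microglia, 34 of 35 members were lower in replicate 2, and in lymphoid cells 29 of 35. Of all genes with at least 30 CPM on average, 51.5% and 45.8% were higher in replicate 2.

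**Figure D4:**
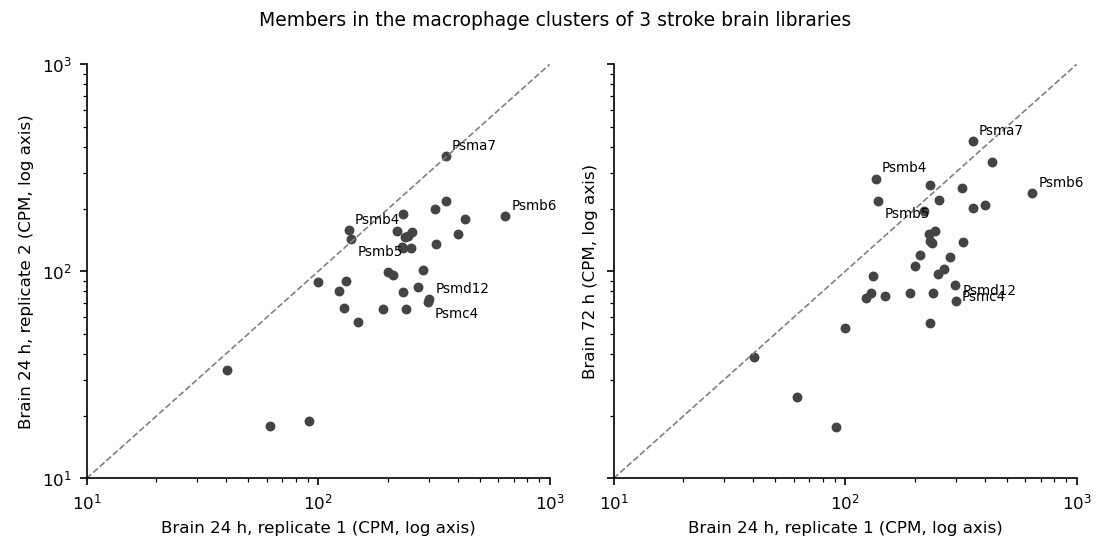
Level of each member in macrophages of brain 24 h replicate 1 (x axis, CPM, log scale) against brain 24 h replicate 2 and brain 72 h (y axes, CPM, log scale). Points on the dashed line have equal levels. Most lie below it, while Psmb4, Psmb5 and Psma7 lie on or above it. Psma8 and Psmb11 are below the range of the axes.

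The inducible catalytic genes are no members but replace 3 of them in the same core particle. The ratio of their UMIs (Psmb8, Psmb9 and Psmb10) to those of Psmb5, Psmb6 and Psmb7 was lowest in SAMC at 0.515 ± 0.160 (SD, n = 4). It was 1.01 ± 0.494 in CAM_2 (n = 8), 1.81 ± 0.868 in Macro_2 (n = 8), 1.03 ± 0.294 in Micro_1 (n = 7), 2.21 ± 0.507 in mDC1 (n = 6) and 2.45 ± 0.502 in T cells (n = 8). In SAMC, Psmb6 alone had 509 ± 270 CPM and Psmb8 239 ± 112 CPM. In T cells the order was the other way round, with 251 ± 94.5 CPM of Psmb6 and 724 ± 253 CPM of Psmb8. These means cover different libraries. In the 4 libraries that hold SAMC, the ratio was 0.312, 0.535, 0.509 and 0.702 in SAMC (brain 24 h replicate 1, replicate 2, brain 72 h and pia 24 h). It was 0.415, 0.932, 0.977 and 1.12 in all macrophages, above SAMC in 4 of 4, with means of 0.515 ± 0.160 and 0.860 ± 0.307 (SD). In CAM_2 of these libraries it was 0.599 ± 0.250, above SAMC in 3 of 4, and the means differed by less than either SD. Microglia had 0.794 ± 0.150, also above SAMC in 3 of 4.

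**Figure D5:**
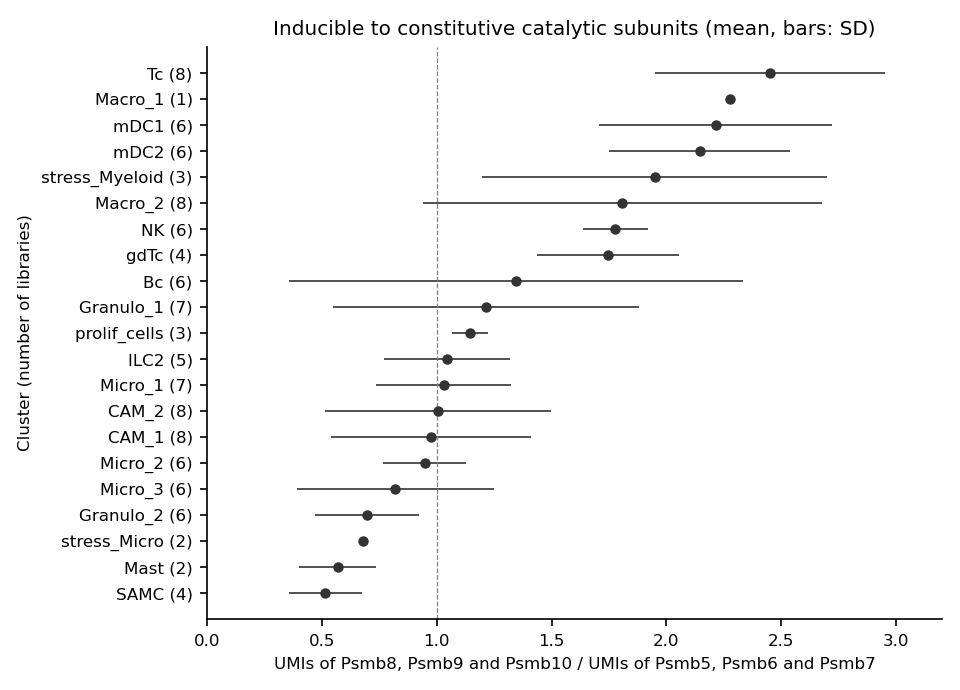
Ratio of UMIs of the inducible genes Psmb8, Psmb9 and Psmb10 to those of the constitutive genes Psmb5, Psmb6 and Psmb7 (x axis) in each cluster (y axis, with the number of libraries). Points are means over libraries, bars are SD and the dashed line marks equal UMIs. SAMC lie lowest at 0.515 and T cells highest at 2.45, over different sets of libraries.

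The list of 22 other proteasome genes (inducible subunits, activators, assembly factors and regulators) was tested in the same fits. Against macrophages, 2 were lower in SAMC and 0 higher, against 2.16% and 0.767% of all genes. The 2 were Psmb9 (log2 -0.92, adjusted p = 0.032) and Psme1, a subunit of the interferon-induced activator (-0.66, adjusted p = 0.034), both in 4 of 4 libraries. The same fit called 0 constitutive members. Against microglia, 4 of 22 were higher and 1 lower in SAMC, where 10.9% and 12% of all genes were. The higher ones were Sem1, a small lid component (1.33), Uchl5 (0.91) and Usp14 (0.89), both deubiquitinases of the proteasome, and the unfoldase Vcp (0.68). In dendritic cells 6 of 22 were higher and 1 lower than in macrophages, where 15.9% and 17.3% of all genes were. The largest increases were in Psme2 (1.21), Psmb9 (1.14), Psmb8 (1.12) and Psme1 (1.00), each in 7 of 7 libraries. The largest change among the constitutive members there was the 0.67 of Psmb1. In lymphoid cells 1 of 22 was higher and 6 lower, against 27.5% and 26.8% of all genes, so the list did not stand out there. Among the lower were the assembly factor Pomp (-0.64), Nfe2l1 (-0.59) and Ddi2 (-1.30), the protease that activates Nfe2l1. In Granulo_2, 2 were higher and 7 lower of 15 tested, against 21.8% and 24.3% of all genes, with Psmb10 (-2.51) and Psmb8 (-1.17) at the low end. In the tests of 24 h and of tissue, 0 of these genes were called. Of all genes, 0% were called at 24 h, and 2.02% higher and 1.62% lower between tissues.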

How the data were processed

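Leukocytes were sorted as CD45iv-CD45+ cells and sequenced on the 10x Genomics 3′ platform (recorded as kit v3 for brain 72 h and dura 24 h, v2 otherwise). The shared barcodes do not follow these records, so the fits with kit v2 only rest on uncertain kits. The authors deposited raw UMI counts per gene and barcode made with Cell Ranger 6.0 on mm10, and a table of cluster names, which was used unchanged. No filter or doublet caller was added. Genes were matched by Ensembl ID, with positions from GENCODE M21. The members and all gene lists were chosen with earlier results of these data known. UMIs were summed per library and cluster or class (at least 30 cells). Depth is the summed UMIs, and exact 95% Poisson intervals cover counting error only. The mean log score was the mean of log2(CPM + 10). Tests used edgeR 4.0.16 in R 4.3.3 (filterByExpr, TMM, robust quasi-likelihood, two-sided, Benjamini-Hochberg over all genes tested), with library or tissue as a covariate, and were tested on simulated data with 200 changed genes. Alternatives were DESeq2 1.42.0, library size alone, no filter, 10 or 100 cells, cells with at least 1000 UMIs, each library left out, kit v2 only, single clusters (Macro_2, CAM_2 or Tc) in place of a class, no library block, other denominators and pseudocounts (1 or 50), and, chosen after seeing the data, the longer gene list only and the fit of the difference between classes. Named were the 10 members with the highest mean CPM, up to 10 called members per direction by size of change, Psmb5, Psmb6, Psmb7, Psmd4, Psmd14, Psma8 and Psmb11, and genes of the list of other proteasome genes. The values of 1 gene of that list are not reported here.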

Additional observations from a re-analysis of the deposited data

Results flagged for a closer look

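Barcodes with no cluster name took part in no comparison. Their summed level of the 36 members was compared with that of the barcodes with no cluster name in the control library of the same tissue. It was higher in 3 of the 4 libraries at 24 h, beyond the exact 95% Poisson intervals. It was 6521 CPM in 378 barcodes of brain 24 h replicate 1 against 4392 CPM in brain control. In 400 barcodes of pia 24 h it was 6712 CPM against 4144 CPM. In 538 barcodes of dura 24 h it was 8602 CPM against 6673 CPM. The kits are recorded as v3 at 24 h and v2 in control, a record that the shared barcodes make uncertain. Brain 24 h replicate 2 (3289 CPM in 880 barcodes) lay below its control, and brain 72 h had 4463 CPM in 1347 barcodes. Annotated cells showed the same order, so it was not particular to these barcodes. They had 6307 CPM in brain 24 h replicate 1 and 3415 CPM in replicate 2, against 4181 CPM in brain control. In pia 24 h they had 6084 CPM against 3858 CPM in control, and in dura 24 h 5353 CPM against 4825 CPM.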

How the results depend on the processing

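No called member changed sign under any alternative fit, but most calls were lost in at least 1 of them. Called in every fit with a library block were 5 members for SAMC against microglia (21 were not) and 2 for lymphoid cells (16 were not). For dendritic cells it was 4 (3 were not), for Granulo_2 3 (13 were not) and for proliferating cells 0 (1 was not). Scaled by library size alone, members called higher and lower were 5 and 1 in lymphoid cells against macrophages, 0 and 30 in Granulo_2, and 13 and 0 in proliferating cells. Of all genes, 40.3% and 18.8%, 9.94% and 52.2%, and 11.0% and 4.33% were called with this scaling. There the lymphoid median turned to 0.041, since the median of all genes moved to 0.34. With no library block, members called were 0 and 0 in SAMC against microglia, 1 and 5 in lymphoid cells, 1 and 0 in dendritic cells, 0 and 6 in Granulo_2 and 0 and 0 in proliferating cells. Of all genes it was 0.168% and 0.192%, 15.6% and 19.5%, 6.14% and 7.68%, 13.2% and 14.7%, and 1.93% and 0.178%. The longer gene list only, chosen after seeing the data, gave 5 and 0, 1 and 13, 10 and 2, 0 and 5, and 8 and 0 in the same order. Of all genes it was 5.34% and 7.47%, 23.7% and 26.5%, 15.7% and 16.5%, 15.6% and 19.9%, and 8.28% and 12.4%. DESeq2 gave 1 higher in lymphoid and 0 in proliferating cells, against 25.0% and 5.55% of all genes. Leaving out 1 library gave 0 to 1 higher for SAMC against macrophages, 15 to 24 for SAMC against microglia, 1 to 3 for lymphoid cells, 3 to 11 higher and 1 to 2 lower for dendritic cells, 0 to 1 higher for Granulo_2 (10 to 16 lower), 0 to 8 for proliferating cells, and 0 to 2 higher and 0 to 3 lower between tissues. Of all genes it was 0.390% to 1.14%, 5.68% to 9.17% and 22.2% to 27.3% in the first 3. For dendritic cells it was 12.3% to 17.8% higher and 13.3% to 18.9% lower. For Granulo_2 it was 18.6% to 22.5% higher and 21.1% to 23.0% lower. For proliferating cells it was 3.17% to 8.28%, and between tissues 0% to 19.3% higher and 0% to 16.6% lower. The libraries recorded as kit v2 gave 1 higher and 9 lower in lymphoid, 6 and 2 in dendritic cells and 0 and 10 in Granulo_2. Of all genes, 21.5% and 24.5%, 12.3% and 13.9%, and 18.1% and 19.3% were called there. At least 100 cells gave 3 and 1 in dendritic cells (15.1% and 16.2% of all genes) and 0 and 11 in Granulo_2 (19.2% and 20.3%). Cells with at least 1000 UMIs gave 1 and 13 in lymphoid cells (25.8% and 26.2%), 0 and 7 in Granulo_2 (20.7% and 20.7%) and 0 higher in proliferating cells (6.26%). For proliferating cells, the 100-cell and v2 fits could not be made. The summed level in brain macrophages at 24 h against control was -0.034 without replicate 1 of brain 24 h and 0.94 without replicate 2 (log2). Without brain 24 h replicate 2, and with the longer list only, microglia (0.28, against -0.78 without replicate 1) and lymphoid cells (0.13, against -0.89) of brain turned positive. Without replicate 1, the 72 h against 24 h value turned to 0.27 in macrophages, 0.13 in microglia and 0.083 in lymphoid cells, against -0.71, -0.93 and -0.93 without replicate 2. With at least 100 cells it was 0.083 in lymphoid cells. Lymphoid cells of dura gave -0.056 with at least 1000 UMIs, and the lymphoid score difference was -0.025 with a pseudocount of 1 CPM. Other causes were not tested. Simulated 2-fold changes were recovered in at most 2% of genes in the designs by time and tissue, and what limits them was not tested. Dura microglia rest on 51 and 76 cells.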
